A study of Homo sapiens with 8 samples.

Results

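The RNA made from the MUC4 locus was examined for binding by RBPMS in HUES6 cells, a human embryonic stem cell line in long use. The members were the listed peaks on the minus strand of chromosome 3 that touch the stretch from 195.473 to 195.540 Mb of build hg19, a window of 67 kb that stands for the MUC4 transcript. They numbered 155 of the 194003 peaks in the 4 lists together. Within the window, the 11 kb from 195.505 to 195.516 Mb were set apart as the block around the large exon with the tandem repeats, and this block held 146 of the 155 peaks. The window and the block were picked because enriched regions were already known to lie close together there. Levels of enrichment in the block and the closeness of its regions therefore describe why it was chosen and carry no test.

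MUC4 encodes mucin 4, a very large glycoprotein tethered to the membrane of epithelial cells. Most of its outer part is built from tandem repeats rich in serine and threonine, which carry O-linked sugars, and the number of repeat units varies between human chromosomes. A repeat unit is 16 residues long and is encoded by 48 bases, and the units resemble each other closely. RBPMS is a protein with an RNA recognition motif that binds RNA at short CAC-containing motifs and is known as a regulator of splicing in smooth muscle cells of the rat.

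The eCLIP group comprised 4 libraries and the input group the other 4, all from wild-type HUES6 cells labelled as control in treatment and grown in FTDA medium. Dishes of about 20M cells were crosslinked with ultraviolet light at 400 mJ/cm2, and reads were paired with a length of 75 bases. The eCLIP libraries were immunoprecipitated with an antibody against RBPMS, while the inputs had no antibody and entered only through the deposited values per peak. Whether the libraries stem from separate cultures is not stated, so the spread between them may be technical. The peak lists name no genes, and neither the cell type nor the place of the exon edges was checked against them. MUC4 (gene ID 4585, with 4 RefSeq transcripts) has MUC20 and LOC124905352 as its nearest coding neighbours in the RefSeq table of GRCh38.p14, whose coordinates were not used.

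Lists held between 20254 and 118375 peaks. Over 303 paired peaks, libraries 3 and 4 differed in immunoprecipitation reads by less than sampling noise (chi-square test, 0.91 for each degree of freedom, p = 0.873), whereas this ratio was 2.51 to 4.08 in the other 5 pairs. Libraries 3 and 4 were therefore counted as 1 sample, and each mean ± SD below is over n = 3 samples unless other units are named. The paired peaks had a −log10 p below 15.7 in both libraries, so stronger peaks did not enter this comparison.

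Peaks lay in the repeat block in all 4 libraries, on the minus strand only. Library 1 listed 37 peaks in the block, library 2 listed 45, and libraries 3 and 4 listed 32 each, or 38 ± 6.56 per sample (SD, n = 3). An enriched peak was one with a deposited log2 fold of immunoprecipitation over input of at least 3, which is 8-fold, and a deposited −log10 p of at least 3. All 146 peaks of the block met both thresholds. Over all listed peaks, 15.9% met them in library 1, 5.38% in library 2 and, in libraries 3 and 4, 12.6% and 12.7%. These shares stand beside the block for scale, since the block was chosen on the same values. The plus strand of the whole window had 0 listed peaks in each of the 4 libraries.

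The rest of the window held far fewer peaks, all of them in library 2. That library listed 9 peaks there, of which 8 were enriched, against 0 listed in libraries 1, 3 and 4. They lay between 195498918 and 195502738, and the nearest was 3190 bases downstream of the last block peak in the direction of transcription. The highest was 195498918 to 195498987 with a log2 fold of 6.21, on at least 71 immunoprecipitation reads. The peak with most reads among those with settled read numbers, 195500195 to 195500322, rested on 109 immunoprecipitation reads over 3 input reads, at a log2 fold of 5.24. On paired peaks, immunoprecipitation reads of library 2 were 2.43 times those of library 1, 2.95 times those of library 3 and 2.07 times those of library 4. Scaled by these ratios, the 109 reads come to 44.8, 37.0 and 52.7. The paired peaks lay below a −log10 p of 15.7, whereas the peak of 109 reads stood at that limit. The 14 reads of the weakest enriched peak, 195502729 to 195502738, come to 5.75, 4.75 and 6.77. Among peaks with recovered read numbers the lists started at 3 immunoprecipitation reads. None of these regions was reproducible, a term used here for a merged region with enriched peaks in at least 3 of 4 libraries.

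The only listed peak of the window that missed the thresholds was 195501987 to 195502029 in library 2, with a log2 fold of 2.97 and a −log10 p of 2.97. Just inside the thresholds, the lowest log2 fold was 3.75 in library 1, at 195506344 to 195506390, where 55 immunoprecipitation reads stood over 13 input reads. The lowest −log10 p among enriched peaks was 3.39, at 195502729 to 195502738 in library 2.

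**Figure D1:**
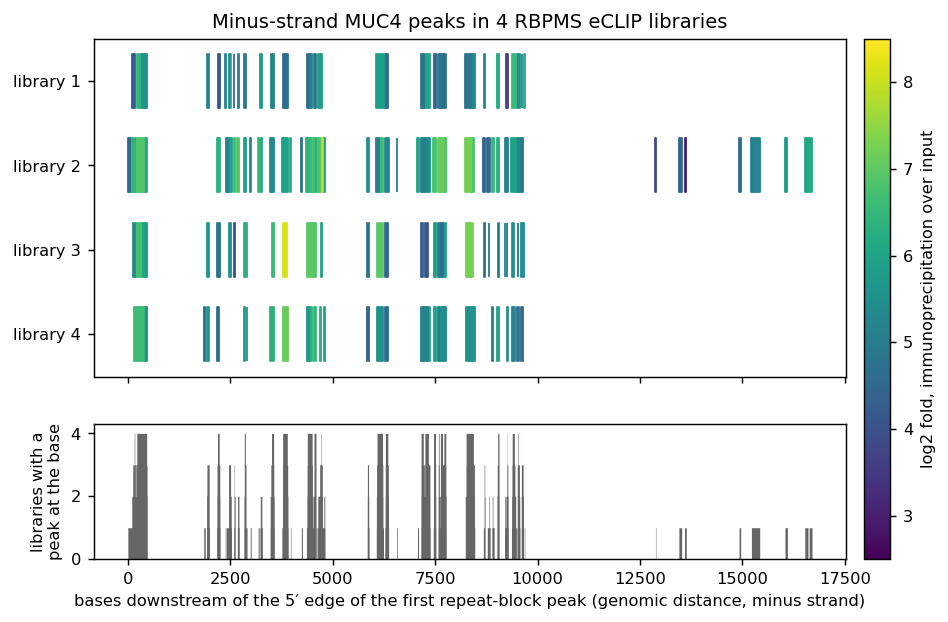
Upper panel: each bar is a listed minus-strand peak in 1 of 4 eCLIP libraries (rows), coloured by its deposited log2 fold over input. Lower panel: the number of libraries with a peak at each base. The horizontal axis is genomic distance in bases along the direction of transcription. Block peaks form 3 clusters that recur in all 4 libraries, while the 9 peaks farther downstream are in library 2 alone.

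Block peaks fell into 3 clusters separated by more than 1 kb. In the direction of transcription, the 5′ cluster ran from 195515618 down to 195515144, with 475 bases and 14 peaks over the 4 libraries. The middle cluster spanned 2960 bases, from 195513765 to 195510806, with 58 peaks. The 3′ cluster spanned 3847 bases, from 195509775 to 195505929, with 74 peaks. No library listed a peak in the 1378 bases between the 5′ and middle clusters, or in the 1030 bases between the middle and 3′ clusters. Within the 3′ cluster, further stretches of 493 bases (195508549 to 195509041) and 464 bases (195507382 to 195507845) held none in any library. The cause of these empty stretches was not tested, and how the authors placed reads that match several repeat units was not given in the sources used here.

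Peaks of different libraries landed on the same bases. Of the 11001 bases of the block, 1441 were covered by all 4 libraries, 688 by 3, 540 by 2, 814 by 1 and 7518 by none. All 4 libraries thus covered 41.4% of the bases that any of them covered. In the 5′ cluster that share was 53.7%, in the 3′ cluster 46.6% and in the middle cluster 30.4%. Enriched bases shared with at least 1 other library made up 96.7% of library 1's block bases, 80.7% of library 2's, 97.5% of library 3's and 96.7% of library 4's. For enriched peaks outside the window the shares were 65.2%, 49.2%, 88.5% and 79.2% in the same order. The block was chosen for its recurrence, so this difference was not tested.

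The outlines of single peaks were close between libraries. In 9 reproducible block regions each of the 4 libraries had exactly 1 enriched peak. Their starts spread over a median of 24 bases between libraries (4 to 49) and their ends over 20 bases (8 to 36). In 292 such regions outside the window the medians were 32 and 30 bases. The 9 block regions had a median width of 75 bases, against 127.5 bases for the 292. Relative to these widths the edges in the block were not closer. At 195505957 to 195506015, the peak of library 1 was 1 base wide.

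Merging gave 40 enriched regions in the block. Of these, 5 regions were enriched in 2 libraries and 12 in 1. Reproducible were 23, and 18 of the 23 were enriched in all 4 libraries. That is 78.3% of the block's reproducible regions, against 55.3% of all 1699 in the genome. The 3′ cluster held 13 reproducible regions, the middle cluster 9 and the 5′ cluster 1. Their widths ran from 38 to 412 bases, with a median of 92 bases, against a median of 168 bases over all reproducible regions. The region values below are the highest log2 fold among a library's enriched peaks in the region, which favours wide regions that join several peaks.

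The named regions are the 5 with the highest mean log2 fold over the 4 libraries taken singly. The first by this mean was the single one of the 5′ cluster, 195515144 to 195515555. Immunoprecipitation exceeded input there 87.3-fold, 117-fold, 106-fold and 97.6-fold in libraries 1 to 4, a mean log2 fold of 6.66 ± 0.21 (SD, n = 3). It was also the widest and the region with the smallest spread among the 18 of all 4 libraries. It joined 2 to 4 peaks per library.

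Second by this mean, at 6.49, was 195511704 to 195511858 in the middle cluster, with log2 folds of 4.75, 5.95, 8.15 and 7.12 in libraries 1 to 4. Libraries 3 and 4 stood above both others, and the spread was the largest of the 5 regions named. Its mean over samples, 6.11 ± 1.45 (SD, n = 3), was the lowest of the 5 and lay below the 6.23 of region 195509378 to 195509553, which was not among them. In the same cluster, 195510853 to 195511000 had 5.82, 7.81, 5.99 and 6.24, where library 2 stood highest and the other 3 lay close together. Region 195511020 to 195511259 had 5.24, 6.72, 6.97 and 6.47, with library 1 lowest. In the 3′ cluster, 195507150 to 195507381 had 5.33, 7.25, 7.24 and 5.63. There libraries 2 and 3 formed a high pair and libraries 1 and 4 a low pair, although libraries 3 and 4 were counted as 1 sample.

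These 5 regions do not hold a firm order among themselves. Their means over samples ran from 6.11 to 6.66, a range smaller than the SD of 4 of the 5. Across the 18 regions of all 4 libraries, library 1 gave the lowest value in 11, library 3 in 4, library 4 in 3 and library 2 in 0. Library 2 gave the highest value in 8, library 3 in 6, and libraries 1 and 4 in 2 each.

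The remaining reproducible regions had mean log2 folds over libraries of 4.75 and upward. The lowest mean was at 195509254 to 195509346 in the 3′ cluster, with 4.59, 5.31, 4.48 and 4.63 in libraries 1 to 4. Region 195506135 to 195506254 in the 3′ cluster ran the other way from most, with 6.54 in library 1 and then 5.93, 5.54 and 5.19. The median over the 23 means was 5.73, against 4.71 over the reproducible regions outside the window.

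**Figure D2:**
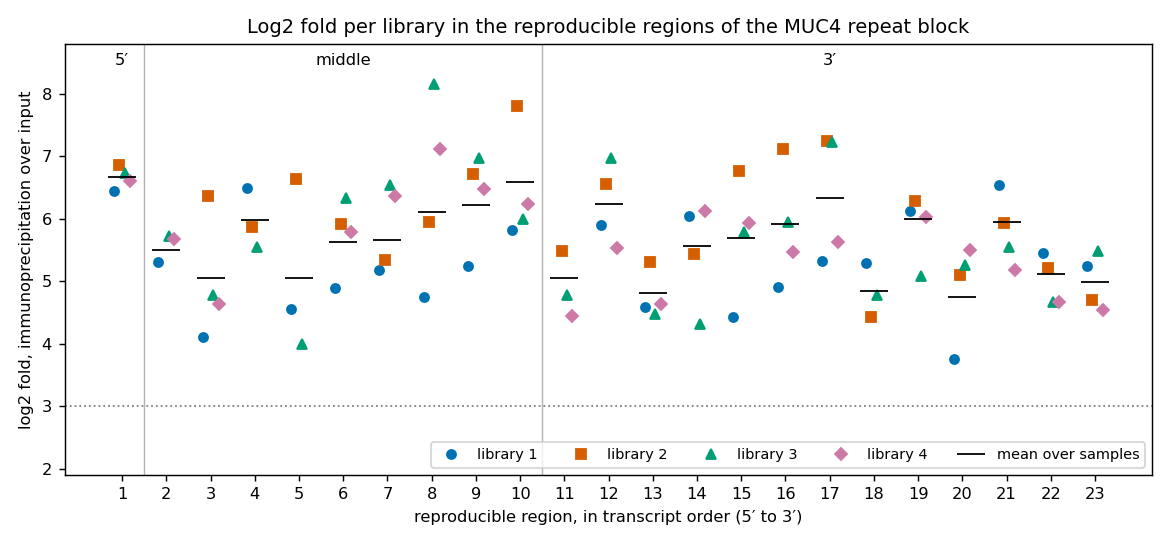
Deposited log2 fold of immunoprecipitation over input (vertical axis) in the 23 reproducible block regions in transcript order (horizontal axis). Symbols are the 4 libraries, the short line is the mean over samples and the dotted line is the threshold of 3. The 5′ region is the tightest, and in the middle cluster library 1 is often the lowest.

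By cluster, the mean log2 fold over regions of all 4 libraries was 6.66 ± 0.21 in the 5′ cluster (1 region), 5.88 ± 0.76 in the middle cluster (6 regions) and 5.58 ± 0.35 in the 3′ cluster (11 regions; SD over n = 3 samples). The 5′ region exceeded the 3′ cluster by 1.09 ± 0.17 and was higher in 3 of 3 samples. It exceeded the middle cluster by 0.79 ± 0.58 on the same measure, but this rests on the highest peak of 1 wide region. The median log2 fold over single peaks was 5.91 ± 0.34 in the 5′ cluster and 5.80 ± 0.60 in the middle cluster (SD, n = 3). In libraries 1 to 4 these medians were 5.56, 6.24, 5.91 and 5.99 in the 5′ cluster, against 5.12, 6.26, 6.16 and 5.86 in the middle cluster. By sample the 5′ cluster was higher in 1 of 3, so the order of these 2 clusters depends on the measure. The middle cluster lay above the 3′ cluster by 0.30 ± 0.57, in 2 of 3 samples, which is within the spread between samples. Library 1 was the sample that went the other way, with 5.0 in the middle cluster and 5.30 in the 3′ cluster. Since these are the values by which the block was chosen, they are given as a description.

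Libraries ranked the block's regions only loosely alike. Pearson's r of the log2 folds was 0.67 between libraries 3 and 4 over 20 regions. It was 0.41 between libraries 2 and 3 (22 regions) and 0.42 between libraries 2 and 4 (19 regions). For library 1 it was 0.13 against library 2 (21 regions), 0.12 against library 3 (22 regions) and 0.24 against library 4 (19 regions). Over reproducible regions outside the window r was 0.66 between libraries 3 and 4, 0.56 for both pairs of library 2 with these, and 0.30 to 0.35 for library 1. Spearman's rank correlation in the block was 0.51 between libraries 2 and 3 and 0.60 between libraries 3 and 4. Outside the window it was 0.50 and 0.57 for these pairs. In every other pair it was lower in the block than outside. These are correlations across neighbouring regions of 1 transcript, which share libraries and are not independent.

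Read numbers behind the peaks were worked back from the deposited pairs of log2 fold and p. The block rested on at least 3545, 7001, 1023 and 1974 immunoprecipitation reads in libraries 1 to 4. The matching input reads came to at least 343, 119, 41 and 55. The lowest pair of read numbers that the values allow was used for each peak that they left open, so these sums are lower bounds. Per peak, the median of the lowest immunoprecipitation reads was 63, 108, 25 and 48 in libraries 1 to 4. Over all listed peaks with recovered reads, enriched or not, the median was 3 to 4. That median leaves out every peak with a −log10 p of 15.7 or more, while the block medians include such peaks. The sets are therefore unlike, and the size of the difference was not tested on like sets.

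The list of library 1 differed from the others in the input reads behind it. Which input library entered each list was not given in the sources used here, so an input below is the one behind a list's deposited values. At least 5 input reads lay behind 25 of its 37 block peaks, against 8 of 45 in library 2 and 0 of 32 in libraries 3 and 4 alike. The input behind the list of library 1 was 3.18 times as deep as the immunoprecipitation, against 1.04, 2.12 and 1.46 times for the lists of libraries 2, 3 and 4. Its median log2 fold over block peaks was 5.18, against 6.07, 5.51 and 5.52. The part of input depth in the lower folds of library 1 was not tested. In library 3, 18 of 24 peaks with settled read numbers had an input of 1 read, and in library 4 it was 10 of 19, against 1 of 25 in library 1 and 2 of 13 in library 2. The deposited values do not separate an input of 0 from an input of 1, so such folds depend on how the authors treated 0. Peaks at the limit of p often have open read numbers and can rest on 1 input read as well. In library 2 this limit was met by 34 of 45 block peaks, so the counts of settled peaks do not rank the libraries.

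**Figure D3:**
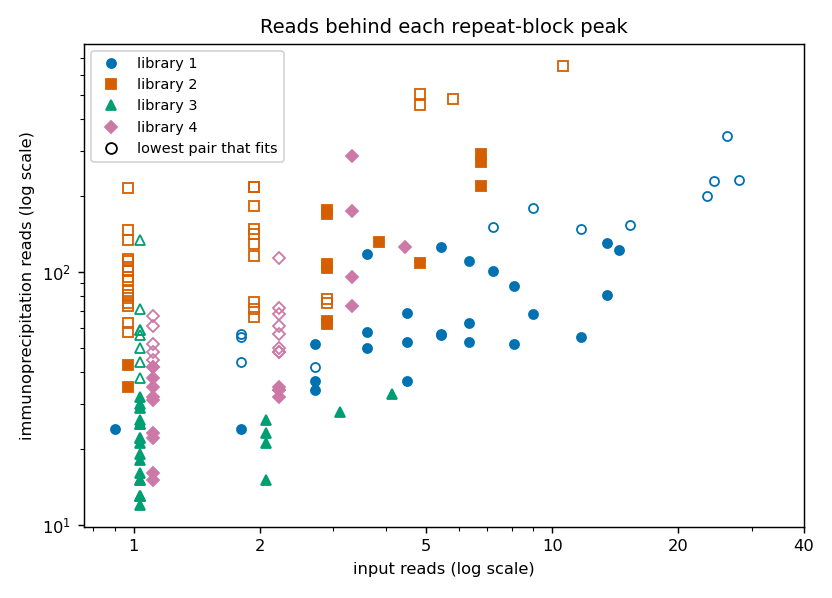
Immunoprecipitation reads (vertical axis, log scale) against input reads (horizontal axis, log scale) behind each of the 146 block peaks. Libraries are shifted slightly sideways so that they can be told apart; filled symbols have settled read numbers and open symbols are the lowest pair allowed. Library 1 spreads to the right, to at least 31 input reads, while libraries 3 and 4 stay at 4 or fewer at these lowest pairs.

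Peak width itself was not used to choose the block, but the closeness of its enriched regions was. The distances between peaks, taken up after the widths, are therefore not independent of that choice. Whether the choice also bears on the widths was not tested. Enriched block peaks had median widths of 62, 67, 58.5 and 58 bases in libraries 1 to 4, against 75, 89, 80 and 81 bases for enriched peaks outside the window. They were narrower in each library, with a difference of -19.1 ± 5.27 bases per sample, at 62.4 ± 4.39 against 81.5 ± 7.05 bases (SD, n = 3; exact two-sided sign-flip permutation test, p = 0.25, the smallest that 3 samples allow). The direction depends on the peaks taken: with all listed peaks on both sides, block peaks were wider by 13.6 bases. Widths in the block ran from 1 base in library 1 to 239 bases in library 4. Some enriched peaks abut, so that a width can be that of a piece. Abutting pairs made up 19.4%, 29.5%, 6.45% and 19.4% of neighbouring enriched pairs in the block. Outside the window they made up 14.7%, 26.5%, 12.2% and 16.4%, and their part in the widths was not tested.

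Whether peaks followed the length of the repeat unit was asked through the distances between neighbouring peak starts. A distance was counted when it lay within 3 bases of a multiple of 48, a criterion that covers 14.6% of all possible remainders. In the block this held for 6 of 36 distances of library 1, 8 of 44 of library 2, 6 of 31 of library 3 and 3 of 31 of library 4. The share was 16.5% ± 1.84 in the block and 12.7% ± 1.23 for neighbouring peaks outside the window (SD, n = 3). Library 4 went the other way, with 9.68% in the block against 14% outside. Its block share was the lowest and that of library 3, 19.4%, the highest. These libraries were averaged as 1 sample, so the SD of the block's share leaves out the spread between them. Within 1 base the block's share was 3.83%, below the 6.25% of remainders counted and below the 5.40% outside. Under this tighter criterion no excess at multiples of the repeat length was seen. Neighbouring distances share peaks, and peaks of the 4 libraries overlap, so they are not independent. Of these distances, 7, 13, 2 and 6 in libraries 1 to 4 joined peaks that abut, where the distance is the width of a peak.

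**Figure D4:**
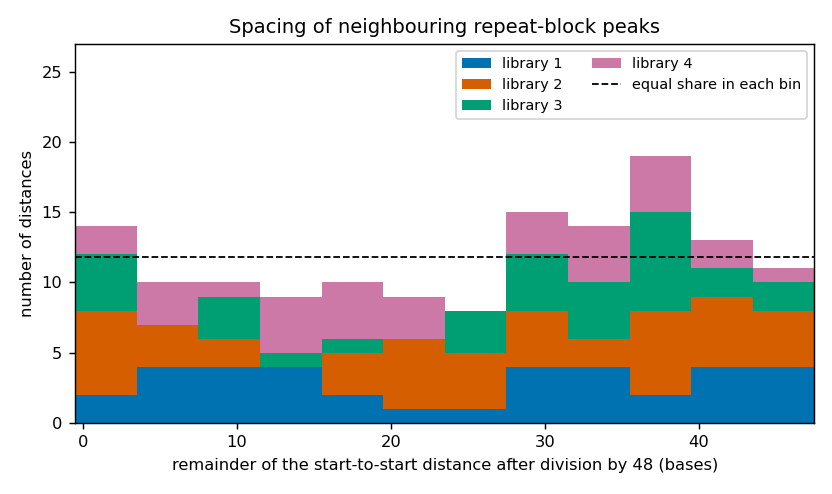
Number of distances between neighbouring block peak starts (vertical axis) by their remainder after division by 48 bases (horizontal axis, bins of 4 bases), stacked by library. The dashed line at 11.8 is an equal share of the 142 distances, and bins run from 8 to 19 with no concentration at either end of the axis, where multiples of 48 would fall.

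Flanking sequence of the same width gave a local comparison on the same strand. Which genes the flanks hold, and on which strand, was not checked. The flanks are therefore not matched to MUC4 for transcription. The flank at lower coordinates, 195406000 to 195472999, had 0 listed minus-strand peaks in each library and 7 plus-strand peaks in library 2, none enriched. In the flank at higher coordinates, 195540001 to 195607000, the minus strand held 11, 14, 7 and 8 listed peaks in libraries 1 to 4, of which 10, 8, 3 and 6 were enriched. Their median log2 folds were 4.75, 5.09, 5.17 and 4.97, and the nearest lay 50296 bases past the window. The block alone held 24.5%, 14.9%, 24.8% and 17.2% of the enriched peaks of chromosome 3 in libraries 1 to 4. These shares describe a block that was chosen for its enriched regions, and they were not tested.

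Genome-wide, runs were formed from reproducible regions at most 1 kb apart on 1 strand. The 3′ cluster, with 13 regions, ranked 2 of 1049 runs by number of regions, and the middle cluster, with 9, ranked 4. The block was chosen for enriched regions lying close together, so these ranks and the densities below describe that choice. The stretch between these clusters, 1030 bases without a listed peak, is little longer than the 1 kb allowed. The split and both ranks therefore depend on that limit, and no other limit was run. The 2 runs elsewhere with most regions lay on the minus strand of chromosome 6, 157731460 to 157735393, with 17 regions, and on the minus strand of chromosome 16, 907408 to 909941, with 10. Regions stood at 3.40 per kb in the 3′ cluster and 3.16 per kb in the middle cluster, against 4.32 per kb in the chromosome 6 run and 3.95 per kb in the chromosome 16 run. All 17 regions of the chromosome 6 run were enriched in all 4 libraries, against 11 of 13 in the 3′ cluster, 6 of 9 in the middle cluster and 6 of 10 in the chromosome 16 run. Mean log2 folds over regions were 5.44 ± 0.57 in the 3′ cluster, 5.83 ± 0.56 in the middle cluster, 7.37 ± 0.47 on chromosome 6 and 5.14 ± 0.41 on chromosome 16 (SD over regions).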

How the data were processed

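The 4 eCLIP peak lists hold hg19 coordinates, per the submitters' processing notes. Per peak, the deposited log2 fold and the deposited −log10 p of immunoprecipitation over input were used as given. Aligner and peak caller were not given in the sources used here. Peaks are listed per library, not on pooled libraries.

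Read numbers were worked back from each log2 fold and p, as a ratio of whole numbers times a depth constant. Below 5 reads on either side, p was modelled by an exact binomial test in place of Fisher's exact test. From 5 reads on both sides, a chi-square test with continuity correction was used (relative tolerance 0.003). This recovered 94.0% to 98.5% of peaks with a log2 fold above 0 and a −log10 p above 0 and below 15.7, where Fisher's p ends. Values of 400 have no order. Pairs of libraries were compared on peaks with recovered reads that share 80% of the longer one and together hold at least 40 reads. Enriched peaks that share 1 base were merged.

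Members, lists, thresholds and named regions (the 5 highest by mean log2 fold over libraries among those in all 4, and the 2 longest other runs) were chosen with earlier results of these data known. Python 3.11.15, pandas 2.3.3, numpy 2.4.6, scipy 1.17.1 and matplotlib 3.10.9 were used. Only the working back of reads and the merging were tested on simulated data. The simulated p came from the same model, so it does not check that model against the authors' test. Alternatives were other thresholds, merging rules and libraries left out. No genome of build hg19 was used, so no sequence is shown.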

Additional observations from a re-analysis of the deposited data

Results flagged for a closer look

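Of 29 quantities compared over the 4 libraries, 2 had a library whose distance to the nearest other took up more of the whole range than Dixon's criterion for 4 values allows, against about 1.45 that chance would give, since it marks about 1 in 20 groups. Both concern the MUC4 window outside the repeat block, where library 2 had 9 listed peaks and 8 enriched peaks and each other library had 0. They are the same peaks counted differently. Libraries 3 and 4 were taken singly here, and with 3 values at 0 any value above 0 meets the criterion.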

How the results depend on the processing

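No paired analysis was possible because the input libraries come with no peak values here, so the replicate block was not run. Of 61 alternatives, 57 kept the direction and stayed within 1.5 times a count, or within 1 SD of a value. The mean of 38 enriched block peaks was 34.5 to 38.5 with each library left out. The 23 reproducible regions became 22 with −log10 p of at least 5, 23 with log2 of at least 1, 28 with merging at 50% overlap, 28 for at least 2 libraries and 18 for all 4; when 1 library was left out and 2 of 3 were required, they were 25 to 28. Mean log2 fold of the regions, 5.64, was 5.42 to 5.78 with each library left out. The width difference of -19.1 bases reversed to 13.6 with all listed peaks, and was -22.1 to -17.6 with each library left out (-19.9 with 4 libraries taken singly). Spacing, 16.5%, was 12.8% by midpoints (11.8% outside the window), 3.83% within 1 base and 27.6% within 6 bases, where the criterion itself counts 6.25% and 27.1% of remainders; by ends it was 16.6%, and with each library left out 14.8% to 18.1%. The causes of the changes by peaks taken and by midpoints were not tested. Depth limits folds on 1 input read, and peaks at the limit of p have no order. Alternatives on the named regions were added after seeing the data.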
